A study of Homo sapiens with 8 samples.

Results

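Interferon-stimulated genes are the genes that cells switch on when interferon binds its receptors. This set holds 53 of them, chosen by name from the knowledge of the interferon response, and their RNA was read from a table of 16547 protein-coding genes. A row was found for 52 members, IFI27 was not analysed here, and 48 members had enough reads to be tested. Their N1-methyladenosine (m1A) was read from lists of m1A peaks that name these genes.

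The samples came from 5637 cells, an established human bladder cancer line, compared with and without stable knockdown of TRMT61A, the catalytic subunit of a tRNA methyltransferase that makes m1A. Control samples are labelled WT in genotype and NC in their titles, and knockdown samples are labelled TRMT61A knockdown and SH. Each group had 2 samples. An m1A antibody was used to pull down RNA from each sample, and sequencing of the pulled-down RNA and of the input gave 8 libraries. No interferon or other agent is named for either group, and the labels do not say which hairpin was used, whether the cells were 1 clone, or whether samples of a group were separate cultures. P-values below therefore measure the spread between these samples only, which may be technical.

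Interferons of type I and type III signal through the kinases JAK1 and TYK2 to a complex that includes STAT2 and IRF9 and binds the interferon-stimulated response element in promoters. Type II interferon acts in part through IRF1, which recognises a similar element. Double-stranded RNA in the cytosol is sensed by IFIH1 and DDX58 and leads to interferon production, and many epithelial cancer lines keep a low level of these genes without added interferon. The induced proteins block viral entry, bind or degrade viral RNA, attach the ubiquitin-like protein ISG15 to other proteins, attract T cells and feed back on the pathway.

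The response element is visible in the members' own promoters. The letters GAAANNGAAA, or TTTCNNTTTC on the other strand, were searched in the 250 bases before each start in RefSeq's promoter sequences (build GRCh38.p14), with overlapping matches kept. They were found for 24 of the 40 members with an entry (60%), against 1014 of 27305 genes (3.71%). Capitals mark each complete match in the sequences below, which are written 5′ to 3′ on the strand of the gene. The promoters of IFIT1 (chr10:89392373-89392622, plus strand) and IFIT3 (chr10:89327747-89327996, plus strand) are shown whole, and each held 2 matches. Their genes gave some of the widest differences between libraries of 1 group. OAS1 differed as widely between the knockdown libraries as IFIT1, and its promoter entry held no match.
IFIT1: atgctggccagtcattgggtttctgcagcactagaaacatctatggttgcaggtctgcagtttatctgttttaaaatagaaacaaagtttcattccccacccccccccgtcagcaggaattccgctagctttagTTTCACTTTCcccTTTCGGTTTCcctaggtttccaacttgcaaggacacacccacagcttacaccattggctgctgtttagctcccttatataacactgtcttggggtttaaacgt
IFIT3: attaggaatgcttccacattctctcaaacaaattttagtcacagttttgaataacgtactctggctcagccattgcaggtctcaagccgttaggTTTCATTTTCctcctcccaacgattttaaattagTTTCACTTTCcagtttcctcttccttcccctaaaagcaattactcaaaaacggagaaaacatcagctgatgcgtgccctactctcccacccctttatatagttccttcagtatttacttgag

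For other members, windows of 30 bases around the match nearest the start are shown. They are of genes with an m1A peak described further on, or stand for some of the roles. The GTPases GBP1 and MX1 and the secreted proteins CXCL10 and LGALS3BP also had a match and are not shown. Where a gene had several starts, a match before any of them counted. MX1, PARP9 and RSAD2 had a match before some of their starts only. ISG15 (chr1:1013380-1013409, plus strand) and BST2 (chr19:17405735-17405764, minus strand) held overlapping matches. The window of PARP14 (chr3:122680800-122680829, plus strand) lay inside the m1A peak of both control samples, and that of IFITM3 inside a peak of control replicate 1.
ISG15: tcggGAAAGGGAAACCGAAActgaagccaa
BST2: ctggGAAACTGAAACTGAAAacctaattaa
PARP14: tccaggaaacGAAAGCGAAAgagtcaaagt
IFIT5: cttacgtttagTTTCGATTTCttaagtttc
IFI6: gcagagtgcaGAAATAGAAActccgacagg
IFIH1: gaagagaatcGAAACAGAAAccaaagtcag
HERC5: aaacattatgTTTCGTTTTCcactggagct
OAS3: gttcggagagccgggcggGAAAACGAAAcc
IFITM3: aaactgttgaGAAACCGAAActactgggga
ISG20: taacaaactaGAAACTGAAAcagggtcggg
EPSTI1: ctgattctgaGAAACCGAAActcagctgtt
The other windows lay at chr10:89414538-89414567 (IFIT5, plus strand), chr1:27672266-27672295 (IFI6, minus), chr2:162318686-162318715 (IFIH1, minus), chr4:88457035-88457064 (HERC5, plus), chr12:112938444-112938473 (OAS3, plus), chr11:320876-320905 (IFITM3, minus), chr15:88638937-88638966 (ISG20, plus) and chr13:42992272-42992301 (EPSTI1, minus). Members with an entry and without these letters in the window included STAT2, IRF1, IRF9, DDX58, OAS1, GBP3, HERC6, SAMD9L, CMPK2 and CXCL11. A match describes the sequence and is not a measured binding site.

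Input libraries held 30046283 to 42177927 counts on protein-coding genes. Levels are given in CPM, read counts scaled to a common library size after TMM normalization, and log2 fold changes compare knockdown with control inputs. Where 4 values stand in a row they are those of control replicates 1 and 2 and then of knockdown replicates 1 and 2. TRMT61A stood at 19.8 and 14.7 CPM in control replicates 1 and 2 and at 13.4 and 6.71 CPM in knockdown replicates 1 and 2, so the groups did not overlap, but its log2 fold change of -0.78 ± 0.29 (SE) missed the threshold (adjusted p = 1.00 in edgeR's quasi-likelihood test). All 7 epithelial markers fixed for the check of the cell type were above 1 CPM in the mean, with summed levels of 3384 to 3916 CPM per library. Of 7 immune markers 0 were above 1 CPM (summed 0.858 to 1.39 CPM), of 6 fibroblast markers 2 were, COL1A1 and LUM (summed 30.3 to 45.3 CPM), and of 3 measured endothelial markers 1 was, VWF (summed 0.954 to 2.43 CPM). As these are bulk samples, fewer cells expressing a gene and less of its RNA per cell cannot be told apart.

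Most members were transcribed in these 5637 cells, for which no interferon treatment is named, over a wide range of CPM. CPM values are not divided by transcript length, so they are compared between libraries and not between genes. A mean below 1 CPM was seen for 10 members, namely the sensor DHX58, the factor IRF7, IFITM1, IFITM2, OAS2, OASL, RSAD2, BST2, XAF1 and CXCL11. Another 14 members were at 1 to 10 CPM, 21 at 10 to 100 CPM, and 7 at 100 CPM or above, namely IRF1, DTX3L, PARP14, ZC3HAV1, SAMD9, APOL6 and LGALS3BP. Too few reads for a test were counted for IRF7, IFITM1, BST2 and XAF1.

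No difference between knockdown and control inputs was called in these genes. Of 48 tested members 0 passed in edgeR (quasi-likelihood test, Benjamini-Hochberg adjustment over all genes), against 5 of 13362 genes in all (0.0374%). DESeq2 also called 0 members, against 24 of 13362 genes (0.180%), and limma-voom called 0. At an unadjusted p under 0.05 there were 2 members in the edgeR test, APOL6 and LGALS3BP, both lower in knockdown, against 441 of 13362 genes (3.30%), and there were 3 with DESeq2, against 364 of 13362 genes (2.72%). The fitted value was higher in knockdown for 30 members and lower for 18, with a median log2 fold change of 0.05, beside 49.8% higher and a median of -0.00 over all tested genes. Log2 fold changes ran from -0.99 for OAS2 to 1.04 for CXCL11, both under 1 CPM, and 4 members went beyond 0.5 in either direction. For the 28 tested members with a mean of at least 10 CPM the SE was 0.07 to 0.28 (median 0.14).

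**Figure D1:**
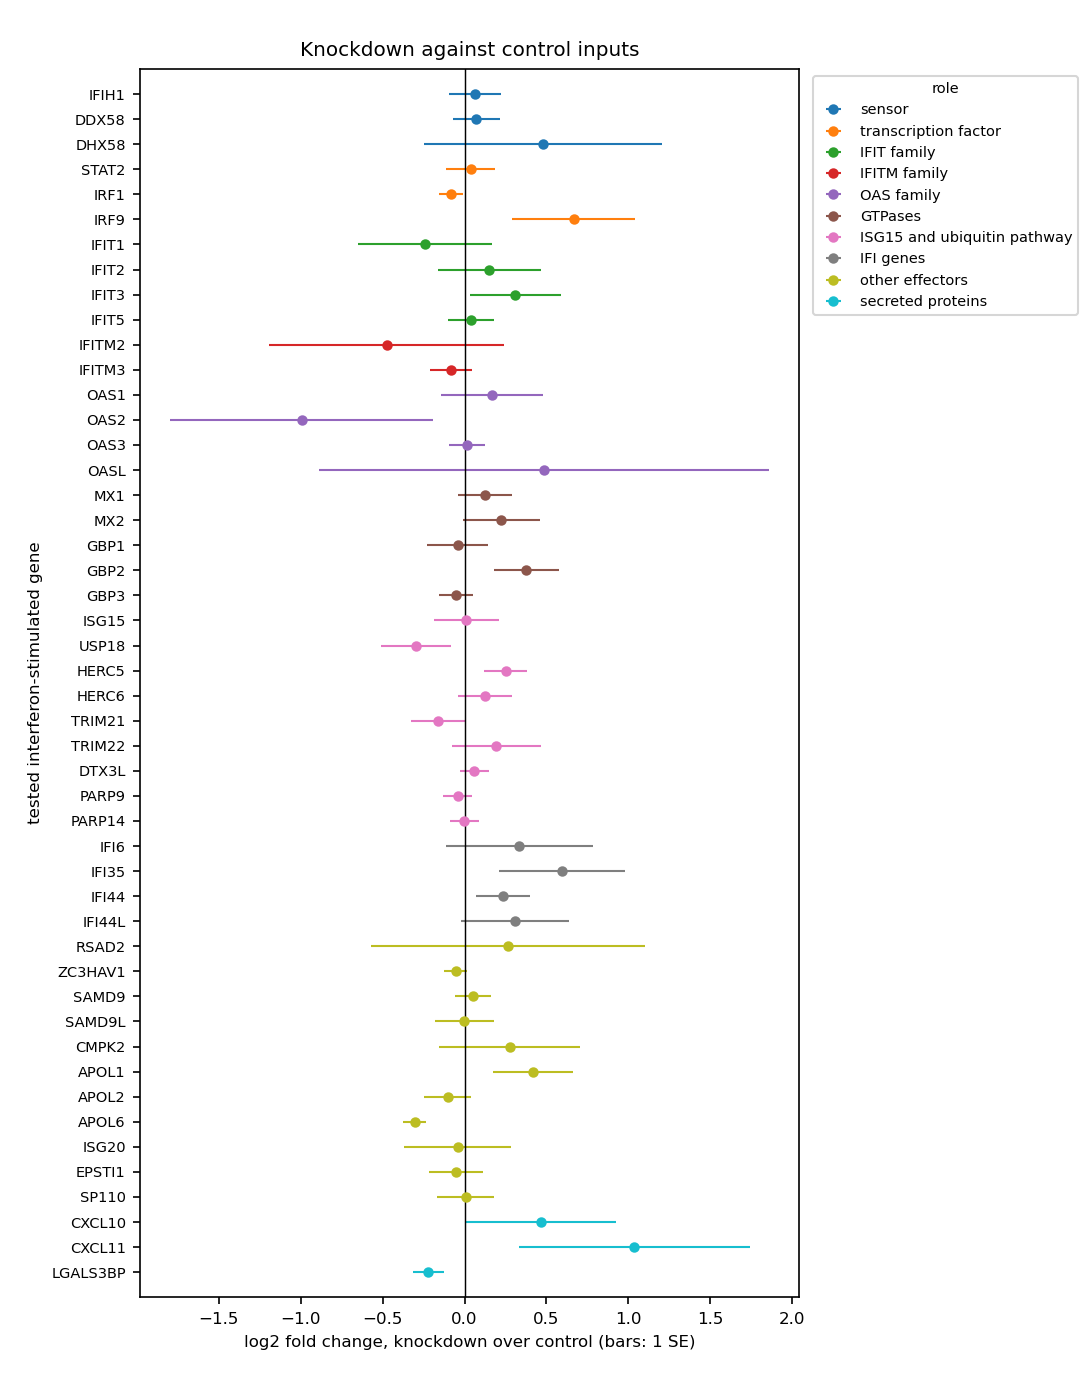
Log2 fold change of knockdown over control inputs for the 48 tested members, by role (points, edgeR estimates; bars, 1 SE; 2 libraries per group). Values scatter around 0 from -0.99 to 1.04, and the widest bars belong to members under 1 CPM.

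By their signed medians, these genes leaned more to replicate 2 within each group than to knockdown between the groups. A signed median shows a shared direction and not how far single genes differed. The value between groups is a fitted one, while those within groups compare single libraries. Control replicate 2 stood above control replicate 1 for 35 of 48 tested members (72.9%, against 6675 of 13362 genes in all), by a median of 0.22 on the scale of log2(CPM + 0.5). Knockdown replicate 2 stood above knockdown replicate 1 for 37 members (77.1%, against 49.7%), by a median of 0.23. Both held for 28 members (58.3%, against 27.8%), and neither for 4 (8.33%, against 28.1%). The highest of the 4 libraries was knockdown replicate 2 for 26 members (54.2%, against 30.5%), control replicate 2 for 10, control replicate 1 for 7 and knockdown replicate 1 for 5. As a description of each library, the median of log2(CPM + 0.5) relative to the gene's mean over the 4 libraries was -0.13 in control replicate 1, 0.08 in control replicate 2, -0.10 in knockdown replicate 1 and 0.19 in knockdown replicate 2.

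The direction of the list between groups therefore turned on single libraries. Without knockdown replicate 2, 11 of 47 tested members were higher in knockdown (median log2 fold change -0.09), and without control replicate 1, 15 of 47 (median -0.05). Without control replicate 2 there were 37 of 48 (median 0.19), and without knockdown replicate 1 there were 35 of 48 (median 0.23). In that last fit 2 members, GBP2 and APOL1, passed, as did 135 of 13678 genes in all (0.987%), the most of any fit run. Knockdown replicate 2 also had the lowest TRMT61A level, and control replicate 1 had the highest and the fewest counts. The summed level of the 6 fibroblast markers was 35.2, 39.0, 30.3 and 45.3 CPM in the 4 libraries, highest in knockdown replicate 2 and lowest in knockdown replicate 1, with LUM at 1.72, 2.58, 0.980 and 5.17 CPM. The endothelial markers summed to 1.65, 2.43, 0.954 and 1.87 CPM, while the immune markers, summed to 1.25, 1.16, 1.39 and 0.858 CPM, were lower in replicate 2 of each group. The epithelial markers summed to 3384, 3916, 3547 and 3747 CPM, so they too were higher in replicate 2 of each group. The part of TRMT61A level, depth or these markers in the differences was not tested.

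**Figure D2:**
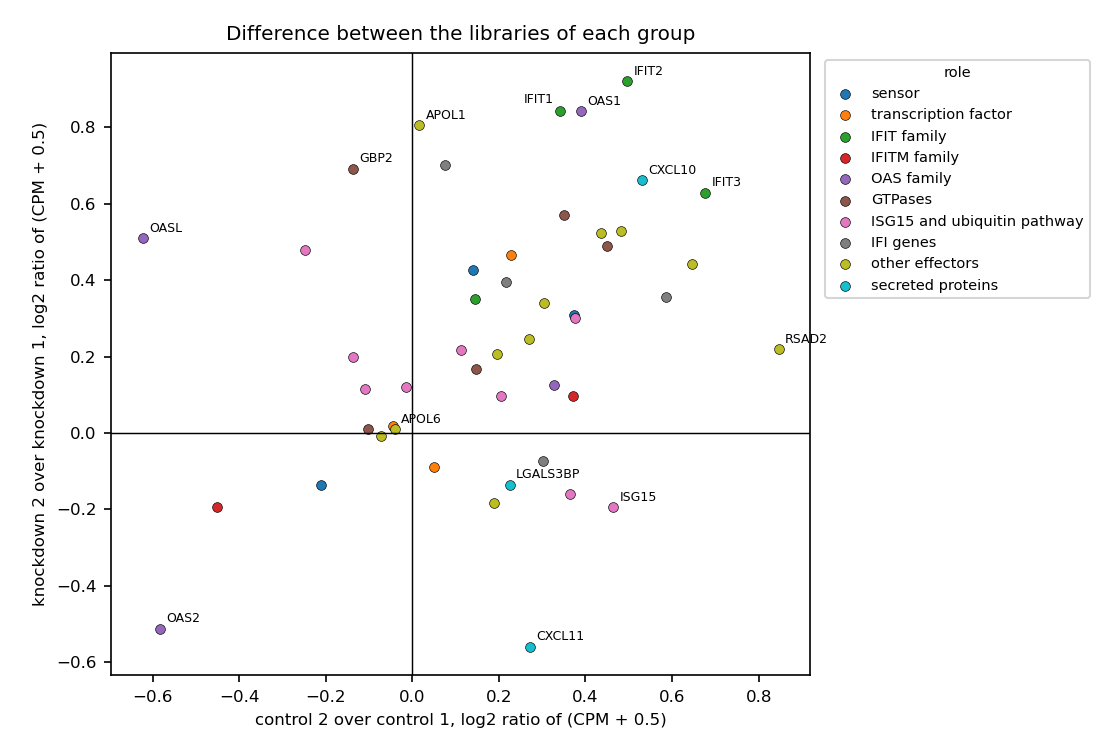
Difference between the 2 libraries of each group for the 48 tested members (log2 ratio of CPM + 0.5; horizontal, control replicate 2 over control replicate 1; vertical, knockdown replicate 2 over knockdown replicate 1; colours, role). In the upper right quadrant lie 28 members, among them IFIT1, IFIT2 and IFIT3, and 4 lie in the lower left.

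The sensors of viral RNA came first among the roles. IFIH1, also called MDA5, which binds long double-stranded RNA (chromosome 2, 162267074 to 162318684), stood at 20.7 and 22.9 CPM in the control inputs and 19.4 and 26.2 CPM in those with knockdown. DDX58, also called RIG-I, which binds RNA ends that carry a triphosphate (chromosome 9, 32455302 to 32526196), stood at 45.9 and 59.6 CPM in the controls, against 49.6 and 61.6 CPM after knockdown. In both genes the groups overlapped and replicate 2 was the higher library of each group. DHX58, also called LGP2, which regulates both sensors, was barely counted, at 8 and 7 reads in control and 13 and 10 in knockdown. The 3 log2 fold changes were 0.06 ± 0.16, 0.07 ± 0.14 and 0.48 ± 0.73 (SE).

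Among the transcription factors, IRF1 (chromosome 5, 132481609 to 132490773) was measured closely, at 115.0 and 111.5 CPM in the control inputs and 106.2 and 107.7 CPM in those with knockdown. The knockdown libraries both lay below the control libraries, by a log2 fold change of -0.08 ± 0.07 (SE) that did not pass (edgeR adjusted p = 1.00). STAT2 stood at 50.8 and 59.6 CPM in the controls, against 47.6 and 65.9 CPM after knockdown, a log2 fold change of 0.04 ± 0.15, with the lowest and the highest library both in knockdown. IRF9, the DNA-binding partner of STAT2 (chromosome 14, 24161265 to 24166565), had 1.08 and 1.13 CPM in the control inputs and 1.83 and 1.69 CPM in those with knockdown. Both knockdown libraries were above both controls, on 32, 48, 71 and 65 reads, and the log2 fold change of 0.67 ± 0.38 did not pass (edgeR adjusted p = 1.00, unadjusted p = 0.112). IRF7, which amplifies type I interferon, had 4 and 4 reads in control and 10 and 8 in knockdown and was not tested.

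The IFIT family, 4 neighbouring genes on chromosome 10 whose proteins bind viral RNA, had their higher library in replicate 2 of both groups. IFIT1 stood at 2.06 and 2.74 CPM in the controls, against 1.32 and 2.76 CPM after knockdown. IFIT2 stood at 6.10 and 8.81 CPM in the control inputs and 5.60 and 11.0 CPM in those with knockdown. IFIT3, the partner that stabilises IFIT1, stood at 7.01 and 11.5 CPM in the controls, against 8.95 and 14.1 CPM after knockdown. In these genes and in IFIT5 (25.9, 28.7, 24.7 and 31.6 CPM in the same order) knockdown replicate 2 was the highest library and replicate 2 exceeded replicate 1 in both groups. Their log2 fold changes were -0.24 to 0.31, with SEs of 0.14 to 0.41, and 0 of 4 passed. The IFIT genes are similar in sequence, and no source used here says how reads shared by such copies were counted.

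The IFITM proteins, which hinder the fusion of viral membranes, were uneven. IFITM3 (chromosome 11, 319676 to 320860) stood at 37.4 and 48.6 CPM in the control inputs and 39.4 and 42.1 CPM in those with knockdown, so that both knockdown libraries lay between the controls (log2 fold change -0.08 ± 0.13, SE). IFITM2 had 15 and 10 reads in control and 12 and 8 in knockdown, and IFITM1 had 5 and 9 reads in control and 5 and 1 in knockdown. These 3 neighbours are near copies of each other, so the split of reads between them is uncertain.

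The OAS enzymes are activated by double-stranded RNA and make oligoadenylate, an antiviral messenger. OAS3 (chromosome 12, 112938474 to 112973251) stood at 87.3 and 110 CPM in the controls, against 95.3 and 104 CPM after knockdown, with both knockdown libraries between the controls (log2 fold change 0.02 ± 0.11, SE). OAS1 was at 4.48, 6.03, 4.10 and 7.75 CPM in the order of control replicates 1 and 2 and knockdown replicates 1 and 2. OAS2 had 20 and 12 reads in control and 14 and 4 in knockdown. Its log2 fold change of -0.99 ± 0.80 ran from -2.13 to -0.28 without 1 library. OASL had 8, 0, 2 and 11 reads in that order, and the 0 in control replicate 2 allows up to 0.0709 CPM (3 counts, counting error only).

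**Figure D3:**
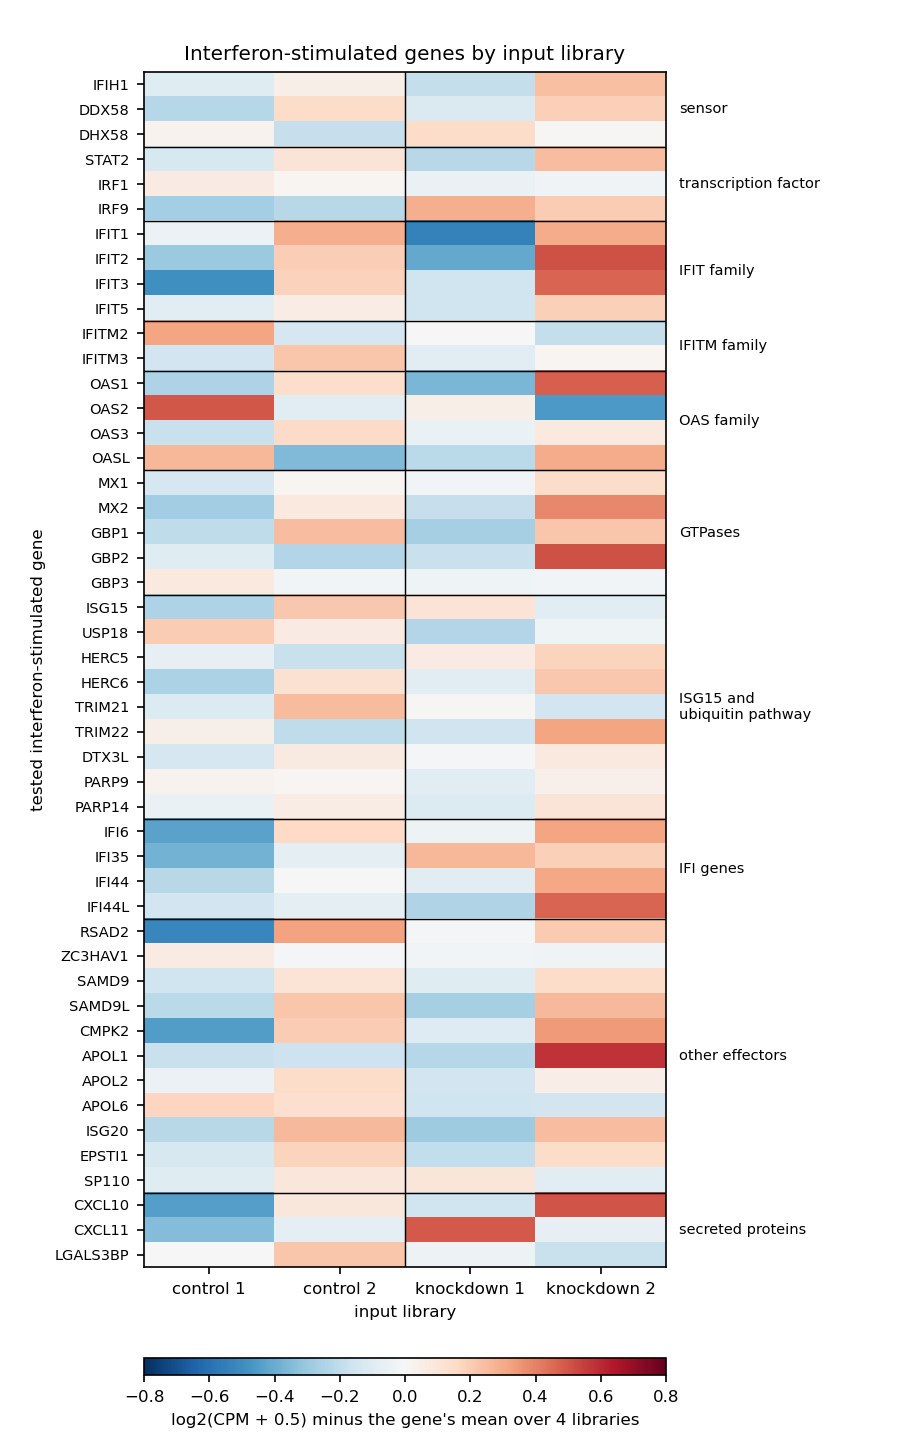
Level of the 48 tested members in each input library (colour, log2 of CPM + 0.5 minus the gene's mean over the 4 libraries; rows, genes by role; columns, libraries). The column of knockdown replicate 2 holds the highest value of 26 rows, and that of control replicate 1 of 7.

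The interferon-induced GTPases include the MX proteins, which trap viral nucleocapsids, and the guanylate-binding proteins (GBP), which attack pathogen-containing vacuoles. GBP2 (chromosome 1, 89106132 to 89126114) stood at 29.9 and 27.1 CPM in the control inputs and 28.2 and 45.8 CPM in those with knockdown. Knockdown replicate 2 alone was high, and knockdown replicate 1 lay between the controls. The log2 fold change was 0.38 ± 0.20 (SE, edgeR adjusted p = 1.00). It was 0.69 without knockdown replicate 1, where the gene passed (edgeR adjusted p = 0.00879), and -0.02 without knockdown replicate 2 (edgeR adjusted p = 1.00). GBP1 (30.3, 41.6, 29.1 and 41.0 CPM) and GBP3 (31.3, 29.2, 29.0 and 29.2 CPM), its neighbours and paralogs, had log2 fold changes of -0.04 ± 0.19 and -0.05 ± 0.10. MX1 stood at 9.44 and 10.5 CPM in the controls, against 10.2 and 11.6 CPM after knockdown (0.13 ± 0.16), and MX2 at 7.49, 9.69, 7.99 and 12.1 CPM (0.22 ± 0.23). In both MX genes replicate 2 was the higher library of each group.

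In the ISG15 and ubiquitin pathway, ISG15 itself (chromosome 1, 1013497 to 1014540) was one of the genes where the libraries of the groups went opposite ways, at 8.73 and 12.2 CPM in the control inputs and 11.3 and 9.85 CPM in those with knockdown (log2 fold change 0.01 ± 0.20, SE). HERC5, the ligase that attaches ISG15 to proteins (chromosome 4, 88457119 to 88506163), stood at 16.7 and 15.4 CPM in the controls, against 18.3 and 19.9 CPM after knockdown. Both knockdown libraries were above both controls, by 0.25 ± 0.13, and HERC5 did not pass (edgeR adjusted p = 1.00, unadjusted p = 0.0891). USP18, which removes ISG15 and dampens the interferon receptor, stood at 6.24 and 5.62 CPM in the control inputs and 4.46 and 5.20 CPM in those with knockdown. Both knockdown libraries were below both controls, by -0.29 ± 0.21 on the log2 scale, and USP18 did not pass either (edgeR adjusted p = 1.00, unadjusted p = 0.204). These values of the ligase and the protease ran opposite ways, each within 2 SE of no difference.

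The remaining ligases and ADP-ribosyltransferases of this group were close to even. HERC6 stood at 16.9, 22.1, 19.1 and 23.6 CPM and the antibody receptor and ligase TRIM21 at 14.2, 18.5, 15.4 and 13.8 CPM, with log2 fold changes of 0.12 ± 0.17 and -0.16 ± 0.16 (SE). PARP14, which adds single ADP-ribose units (chromosome 3, 122680839 to 122730840), stood at 273 and 296 CPM in the controls, against 263 and 306 CPM after knockdown, a log2 fold change of -0.00 ± 0.09. DTX3L and its partner PARP9, which work as 1 complex, had 0.06 ± 0.09 and -0.04 ± 0.09, and TRIM22 had 0.19 ± 0.27. Of the 9 genes of this group, 5 had a higher and 4 a lower fitted value in knockdown, and 0 passed.

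All 4 tested genes named IFI had a higher fitted value in knockdown, as did 49.8% of all tested genes, with log2 fold changes of 0.24 to 0.59, and 0 passed. IFI35 stood at 0.978 and 1.32 CPM in the control inputs and 1.81 and 1.69 CPM in those with knockdown, with no overlap of the groups, on 29, 56, 70 and 65 reads (0.59 ± 0.39, SE; edgeR adjusted p = 1.00). IFI44 stood at 16.3 and 19.0 CPM in the controls, against 17.9 and 23.7 CPM after knockdown (0.24 ± 0.16), and its neighbour IFI44L at 2.66, 2.84, 2.48 and 4.34 CPM (0.31 ± 0.33). In both genes knockdown replicate 1 lay below the higher control. IFI6 had 0.33 ± 0.45. Without 1 library the value ran from -0.0141 to 0.84 for IFI6, from -0.15 to 0.66 for IFI44L, from 0.0187 to 0.42 for IFI44 and from 0.40 to 0.83 for IFI35, so the shared direction was lost for IFI6 and IFI44L.

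The apolipoprotein L genes on chromosome 22 held the member of smallest p. APOL6 (35648446 to 35668404) stood at 169.5 and 164.8 CPM in the control inputs and 134.9 and 135.8 CPM in those with knockdown. The libraries within each group nearly coincided and the groups were well apart. The log2 fold change was -0.30 ± 0.07 (SE) and ran from -0.33 to -0.28 without 1 library. It did not pass over all genes (edgeR adjusted p = 1.00, unadjusted p = 0.00203; DESeq2 adjusted p = 0.177). APOL1, the trypanosome-killing serum protein (36253133 to 36267525), stood at 11.5 and 11.6 CPM in the controls, against 11.1 and 19.7 CPM after knockdown. As with GBP2, 1 library stood apart. The log2 fold change of 0.42 ± 0.24 became 0.77 without knockdown replicate 1 (edgeR adjusted p = 0.0371) and -0.06 without knockdown replicate 2 (edgeR adjusted p = 1.00). APOL2 stood at 17.2 and 19.7 CPM in the control inputs and 15.9 and 18.5 CPM in those with knockdown (-0.10 ± 0.14). These paralogs lie close together, and reads shared between them would make their values uncertain.

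Among the other effectors, ZC3HAV1, the zinc-finger antiviral protein that binds CpG-rich RNA (chromosome 7, 139043515 to 139109720), stood at 160 and 153 CPM in the controls, against 151 and 150 CPM after knockdown. The knockdown libraries were both below the controls, by -0.05 ± 0.07 (SE) on the log2 scale. SAMD9, a poxvirus restriction factor, stood at 710 and 856 CPM in the control inputs and 741 and 880 CPM in those with knockdown, and SAMD9L at 66.1, 89.6, 63.9 and 92.0 CPM. Both overlapped between groups and were higher in replicate 2 of each group. ISG20, an RNA exonuclease, stood at 2.60, 3.83, 2.48 and 3.80 CPM (-0.04 ± 0.33), and EPSTI1 at 18.3, 22.7, 17.4 and 22.2 CPM (-0.05 ± 0.16). RSAD2, also called viperin, had 2, 22, 12 and 17 reads and its neighbour CMPK2, a mitochondrial nucleotide kinase, 30, 79, 55 and 81 reads, so control replicate 1 was the lowest library for both. These 2 genes overlap on chromosome 2, so their reads may not be separable. SP110 was even, at 0.01 ± 0.18. BST2, also called tetherin, had 0, 9, 2 and 3 reads, where the 0 in control replicate 1 allows up to 0.101 CPM, and XAF1 had 5, 5, 2 and 1 reads.

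Of the secreted proteins, LGALS3BP, a galectin-binding glycoprotein (chromosome 17, 78971255 to 78979923), stood at 144.9 and 169.5 CPM in the controls, against 141.3 and 128.6 CPM after knockdown. Both knockdown libraries were below both controls, though knockdown replicate 1 was near control replicate 1. Its log2 fold change of -0.22 ± 0.09 (SE) did not pass (edgeR adjusted p = 1.00, unadjusted p = 0.0446) and ran from -0.33 to -0.10 without 1 library. The T cell chemokines CXCL10 and CXCL11, ligands of CXCR3 on chromosome 4, were low. CXCL10 stood at 0.910 and 1.54 CPM in the control inputs and 1.21 and 2.21 CPM in those with knockdown (0.47 ± 0.46). CXCL11 had 5 and 13 reads in control and 27 and 12 in knockdown, 0.169, 0.307, 0.696 and 0.312 CPM, so that the groups nearly touched (1.04 ± 0.70; from 0.35 to 1.56 without 1 library).

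Both knockdown libraries were above both controls for 4 tested members, IRF9, HERC5, IFI35 and CXCL11 (8.33%), and for 15.6% of all tested genes. Both were below for 5, IRF1, USP18, ZC3HAV1, APOL6 and LGALS3BP (10.4%), and for 14.7% of all tested genes. Both shares of the members were under the background. LY6E, an interferon-induced membrane protein outside the list, was among the few genes that passed. It stood at 2.46 and 1.49 CPM in the controls, against 27.8 and 20.6 CPM after knockdown, 3.64 ± 0.26 on the log2 scale (SE; adjusted p = 0.00212 in edgeR).

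Genes that produce, receive and transmit interferon, rather than respond to it, were read from a separate list of 47 symbols, older and newer names together. A row was found for 37 genes, 36 were tested, 22 had a higher and 14 a lower fitted value in knockdown (median log2 fold change 0.03), and 0 passed. At an unadjusted p under 0.05 there were 2, against 3.30% of all tested genes, the type II interferon receptor chain IFNGR1 (143 and 125 CPM in control, 158 and 180 CPM in knockdown; 0.34 ± 0.09, SE) and the kinase JAK1 (239, 243, 258 and 290 CPM; 0.18 ± 0.08). The interferon gene IFNB1 had 1 or 2 reads in each library and was not tested, while IFNE, an interferon of epithelia, stood at 8.97 and 8.20 CPM in the controls, against 8.98 and 10.9 CPM after knockdown. Replicate 2 was above replicate 1 for 23 of 36 of these genes in control and 22 in knockdown, and in both for 16, where all tested genes gave 6675, 6645 and 3715 of 13362, with medians of 0.04 each on the scale of log2(CPM + 0.5), beside 0.22 and 0.23 for the interferon-stimulated genes.

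Members with and without the promoter letters were set side by side. Tested members without a promoter entry are in neither set. The 21 tested members with a match had a median log2 fold change of 0.04 between groups, and the 15 without had 0.06. Between control libraries the medians were 0.30 and 0.27, and between knockdown libraries 0.34 and 0.02, each for replicate 2 over replicate 1. Replicate 2 was the higher library in both groups for 17 of the 21 with a match and for 7 of the 15 without. These are descriptions of the chosen members and were not tested.

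The m1A peaks were called by the authors per sample, with a fold enrichment of immunoprecipitated over input reads and a score of 10 times the negative log10 p for each, and no peak of the mRNA lists had a fold under 2 or a score under 50. A peak named for a member was listed for 7 of 53 members in control replicate 1 (13.2%, against 28.8% of all genes of the table), for 4 in control replicate 2 (7.55%, against 20.4%), for 9 in knockdown replicate 1 (17.0%, against 25.8%) and for 1 in knockdown replicate 2 (1.89%, against 18.5%). Control lists held 5.5 ± 2.12 and knockdown lists 5 ± 5.66 such members (SD, n = 2 each), and an exact two-sided permutation test gave p = 1, where the smallest p it allows is 0.33. In at least 1 list a peak was found for 15 members (28.3%) and for 7126 of 16534 genes (43.1%). Split by level, the members with a peak were 3 of 10 below 1 CPM (30%, against 11.6% of all genes in that range), 2 of 14 at 1 to 10 CPM (14.3%, against 41.8%), 8 of 21 at 10 to 100 CPM (38.1%, against 58.0%) and 2 of 7 at 100 CPM or above (28.6%, against 57.7%).

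**Figure D4:**
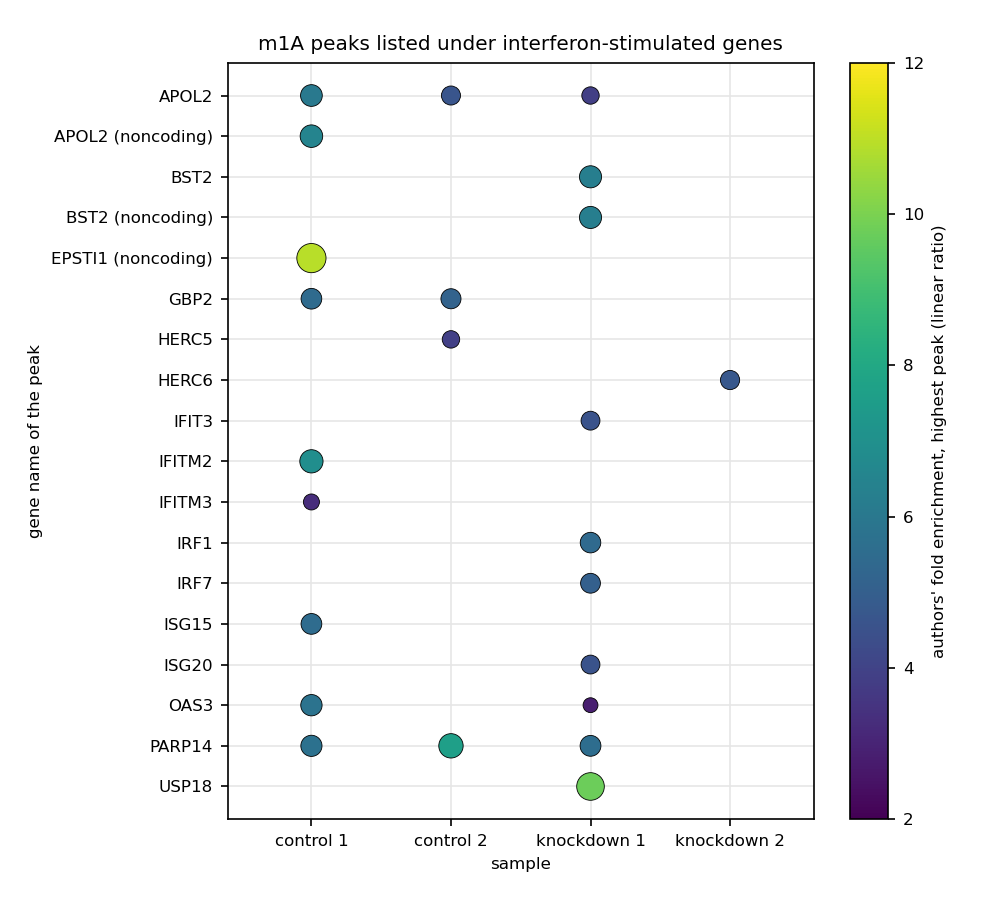
m1A peaks listed under member names in each sample (points; colour and size, the authors' fold enrichment of the highest peak, a linear ratio; noncoding, peaks of the noncoding RNA lists). APOL2 and PARP14 were listed in 3 samples, and knockdown replicate 2 held HERC6 only.

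Peaks of these genes were mostly seen in 1 sample. The 23 listed peaks made 17 sites, taking peaks that share at least 50% of the shorter one as 1 site. Of these sites 13 were in 1 sample, 2 in 2 samples, 2 in 3 samples and 0 in 4. HERC5 has 2 pieces of the same fold and score in control replicate 2, which count here as 2 peaks and 2 sites. Folds were 2.83 to 9.76 with a median of 5.15, where the median over all peaks of a list was 6.25 to 6.88, and scores were 62.5 to 312. Of 14 member peaks on genes with a start in the promoter sequences, 8 lay within 500 bases of it (57.1%), against 9003 of 16865 peaks in all (53.4%). Read numbers under the peaks were not analysed here, and a fold cannot be split into its parts.

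The best supported site was that over the start of PARP14, whose promoter window is printed above. It spanned chr3:122680639-122681070 (hg38) in control replicate 1 with a fold of 5.73, chr3:122680718-122681070 in control replicate 2 with 7.60, and chr3:122680867-122681070 in knockdown replicate 1 with 5.55. The end was the same in all 3 lists. The peak of knockdown replicate 1 began 28 bases after the annotated start, and those of the controls reached before it. APOL2 had a site near the end of the gene in the same 3 samples, chr22:36226553-36227907, chr22:36226554-36227115 and chr22:36226728-36227139, with folds of 6.04, 4.64 and 3.87. Scores of this APOL2 site were 62.5, 135 and 63.8 in the same order, where the lowest score in the lists was 50. GBP2 had the same interval in both controls, chr1:89109677-89109870, with folds of 5.47 and 5.15, and no listed peak in knockdown. The GBP2 scores were 272 in control replicate 1 and 66.6 in control replicate 2. OAS3 had a site in control replicate 1 (chr12:112947946-112948099, fold 5.82, score 102) and knockdown replicate 1 (chr12:112947970-112948099, fold 2.83, score 69.2).

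Among the sites of 1 sample, those of control samples were on IFITM3, IFITM2 (chr11:308154-308438, fold 6.92), ISG15 and HERC5. The IFITM3 peak lay over the start of the gene (chr11:320565-321016, fold 3.28), where IFITM3-AS1 overlaps. The peak listed under ISG15 (chr1:1001147-1001281, fold 5.51) lay 12216 bases before the gene's start, outside any RefSeq gene. The HERC5 peak was listed as 2 pieces of 22 and 17 bases with the same fold of 3.90. The sites of knockdown replicate 1 included USP18 (chr22:18157559-18157820), which had the highest fold of the 23 peaks at 9.76 and a score of 312, and IRF1, over its start (chr5:132490545-132490798, fold 5.40). They also included IRF7 (chr11:615097-615402, fold 5.02), ISG20 (chr15:88639343-88639594, fold 4.54), IFIT3 (chr10:89339979-89340280, fold 4.55, where LIPA overlaps), BST2 and a further piece of APOL2 near its start (chr22:36239441-36239514, fold 3.71). Knockdown replicate 2 had a peak near the start of HERC6 (chr4:88379053-88379120, fold 4.72). IRF7, IFITM2 and BST2 have peaks although their genes had at most 15 reads in any input library, so their folds rest on few input reads over the gene.

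Peaks in the noncoding lists named 3 members. EPSTI1 had a peak that spans its start (chr13:42991978-42992271, fold 10.91) in control replicate 1, with its upstream end directly beside the promoter window printed above. BST2 had 1 in knockdown replicate 1 (chr19:17404379-17404537, fold 6.25), with the fold and score of its peak in the mRNA list (chr19:17405291-17405422). APOL2 had 1 in control replicate 1 (chr22:36236885-36237050, fold 6.50).

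Noncoding transcripts under the members' names gave another reading of the same genes, on 1727826 to 2304288 counts per library. There were 77 such transcripts under 29 names, and all 77 share exons, in sense, with coding genes, so that reads of the mRNA and of these transcripts cannot be told apart. Of 30 tested transcripts, 16 had a higher and 14 a lower fitted value in knockdown, and 0 passed edgeR's test, against 5 of 22803 transcripts in all (0.0219%). DESeq2 called 0 as well. At an unadjusted p under 0.05 there were 2, against 4.55% of all, and both belong to GBP2. ENST00000464839 had 50 and 76 reads in control and 97 and 145 in knockdown, 0.84 ± 0.28 on the log2 scale (SE; in edgeR adjusted p = 1.00, unadjusted p = 0.00517). ENST00000463660 had 43 and 27 reads in control and 57 and 82 in knockdown (0.83 ± 0.37, unadjusted p = 0.0354 in edgeR). Without 1 library the first value ran from 0.49 (without knockdown replicate 2) to 1.12, and the second, for GBP2 as well, from 0.34 (without control replicate 2) to 1.45 (without control replicate 1). In ENST00000464839 both knockdown libraries were above both controls. In ENST00000463660 they were too, but knockdown replicate 1 (26.59 CPM on noncoding counts) was nearly level with control replicate 1 (25.99 CPM). For this transcript, as for the GBP2 mRNA, only knockdown replicate 2 stood clearly above both controls.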

How the data were processed

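Per the labels' protocols, ribosomal RNA was removed, m1A RNA was immunoprecipitated, and input and immunoprecipitated libraries were made with directional kits. Per the submitters' processing notes, HISAT2 2.0.4, HTSeq 0.9.1, STAR and edgeR were used with build hg38, and neither their roles nor the strand setting are given in the sources used here. Raw counts of the 4 inputs per gene and per noncoding transcript were deposited, per the file headers, and 8 columns of normalized values were not used. Per the file headers, the deposited m1A peaks, 1 list per sample and RNA class, carry a fold enrichment, a linear ratio, and a score. Peak starts in the files count from 0 and are given here counting from 1.

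Counts of all genes were fitted with edgeR 4.0.16 in R 4.3.3 (filterByExpr with a minimum count of 10, TMM, quasi-likelihood test, no block), with Benjamini-Hochberg adjustment over all tested genes and a threshold of 0.05. The SE of a log2 fold change is that implied by the F statistic. DESeq2 1.42.0, limma-voom (limma 3.58.1), other filters and scaling, the replicate block and leaving out each input were alternatives. The tests were checked on simulated data. The members, the gene lists and the tests were chosen with earlier results of these data known. Values in every library were planned for the sensors, the transcription factors, members with a peak and the 20 tested members of smallest p, 33 in all. Of the remaining members, those given by library were chosen after their values were seen. Gene positions and promoters came from RefSeq (GRCh38.p14, the coordinates of hg38), with all 53 members matched by identifier or symbol and 40 having a promoter entry.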

Additional observations from a re-analysis of the deposited data

How the results depend on the processing

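The count of genes past the threshold moved most, from 5 in the edgeR test to 24 with DESeq2, 3 with limma-voom, 14 with no filter and 15 with the replicate block, and to 11 to 135 without 1 library. Members past the threshold stayed at 0 in these alternatives, except 2 without knockdown replicate 1 (0 to 2 without 1 library), and members at an unadjusted p under 0.05 ranged from 2 to 9 without 1 library. The number of members higher in knockdown was 11 to 37 without 1 library, and the median over the other pathway genes -0.00134 to 0.0501, with 0 to 1 of them past the threshold. TRMT61A ran from -1.36 to -0.36 (log2 fold change) without 1 library. Leaving out 1 library leaves its group with 1 sample, which is then assumed to vary like the other group. In those fits the share of all genes at an unadjusted p under 0.05 was not counted. The members' counts at that p therefore have no background there, and whether they exceed it cannot be told. The cause of these moves was not tested.

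At a score of at least 100, members with a peak in knockdown replicate 2 went from 1 to 0 and sites shared by at least 2 samples from 4 to 1. Of the values of named genes under alternatives, 280 kept their direction and side of the threshold, 27 changed sign and 2 gained a call. ISG15 had -0.00550 with limma-voom. The other changes of sign came from leaving out 1 library, with ranges of -0.0604 to 0.77 (APOL1), -0.21 to 0.00134 (APOL2), -0.0270 to 0.91 (CXCL10), -0.10 to 0.27 (DDX58), -0.0157 to 0.69 (GBP2), -0.0522 to 0.33 (HERC6), -0.15 to 0.66 (IFI44L), -0.17 to 0.27 (IFIH1), -0.0568 to 0.72 (IFIT3), -0.96 to 0.13 (IFITM2), -0.25 to 0.12 (IFITM3), -0.21 to 0.28 (ISG15), -0.38 to 0.27 (ISG20), -0.11 to 0.49 (MX2), -0.14 to 0.19 (OAS3), -0.11 to 0.10 (PARP14), -0.22 to 0.25 (STAT2) and -0.34 to 0.0369 (TRIM21).

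The groups share the replicate numbers 1 and 2, which the labels do not say pair the samples. Deviations of same-numbered samples correlated at r = 0.0996 over all tested genes and r = 0.315 over the members, values across genes that are not independent replicates. With the number as a block 0 members passed and TRMT61A had -0.84. The members under 1 CPM rest on few reads, and the largest log2 fold changes, those of OAS2 and CXCL11, did not pass there.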
